A study of Sus scrofa with 2 samples.

Results

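The genes described here were 10 genes of bone mineral matrix and of osteocytes: IBSP, SPP1, BGLAP, ALPL, RUNX2, SP7, DMP1, MEPE, PHEX and SOST. Their rows were found by gene symbol, or by the Ensembl pig name where the symbol was missing, and the list itself was drawn up with earlier results of these data known. The 10 genes were represented by 11 of the 27622 annotated features of the expression table, because RUNX2 had 2 features. The first 6 genes were treated as osteoblast genes and DMP1, MEPE, PHEX and SOST as osteocyte genes.

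The samples came from a study of deaf, depigmented Rongchang pigs with a recessive allele of MITF, named r, which carries a short insertion in a regulatory region used in melanocytes. RNA-seq was run on the stria vascularis (SV), the secretory epithelium on the lateral wall of the cochlea, with 1 library of genotype MITF R/r and 1 of genotype MITF r/r. Both libraries therefore carried at least 1 copy of the r allele, and no library without it was compared. The labels give the age of both as P1, whereas the text of the study places the RNA-seq at an embryonic stage, and neither says how many animals gave tissue to a library. The study's methods describe the dissected piece as the lateral wall containing the SV, which lies against the bone of the otic capsule.

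Bone matrix is laid down by osteoblasts, which secrete collagen and phosphoproteins that bind calcium, and alkaline phosphatase, which frees phosphate for mineral. The transcription factors RUNX2 and SP7 are needed for cells to become osteoblasts. Osteoblasts that are buried in the matrix become osteocytes, which make DMP1, MEPE and PHEX, all linked to phosphate balance and mineralisation, and sclerostin (SOST), a secreted inhibitor of Wnt signalling. The border is not sharp, since late osteoblasts also transcribe DMP1, MEPE and PHEX and since osteocytes keep transcribing osteoblast genes such as BGLAP. IBSP, SPP1, DMP1 and MEPE belong with DSPP to the small integrin-binding ligand N-linked glycoproteins, acidic secreted proteins whose genes lie side by side.

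Values were RPKM, the reads of a feature per kilobase of its length scaled to the mapped reads of the library. Library totals worked out from the RPKM values were 15829244 reads for R/r and 14258672 for r/r, so that 1 read on a feature of 1 kb was worth 0.0632 RPKM in R/r and 0.0701 in r/r. Ratios were computed for the 16331 features above 0 in both libraries with an RPKM of at least 1 in at least 1 of them, and all 11 features of the 10 genes passed this minimum. MEPE passed it through the R/r library alone, and the other 9 genes in both libraries. The median log2 ratio of RPKM, r/r over R/r, was -0.02 over all features compared, with 25th and 75th percentiles of -0.18 and 0.12. With 1 library per genotype there was no replicate check and no test across samples. Each ratio is given with a 95% Clopper-Pearson interval from the reads of both libraries, which covers counting error only and compares these libraries, not the genotypes.

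MITF was represented by 3 features with a total of 656 reads in R/r and 424 in r/r, a log2 ratio of -0.48 (95% counting interval -0.66 to -0.30). MITF reads were thus present in the r/r library, and the features do not separate the melanocyte transcript from the others. A list of melanocyte genes differed more, since the 8 found summed to 272 RPKM in R/r and 2.86 in r/r. The 6 compared had a median log2 ratio of -6.23, but 5 of them passed the minimum through the R/r library alone. The study had already reported these 6 as changed between the same libraries, so they give no separate check of the labels. They do not stand for all genes of the cell type. The study reported that other markers of melanocytes or intermediate cells, among them KIT and S100 genes, were still expressed in r/r. From these and from electron microscopy it concluded that intermediate cells remained in r/r before birth.

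The R/r library had the higher level of 9 of the 10 bone genes, and SPP1 was the exception. Of all 16331 features compared, 8711 were also higher in R/r. Of the osteocyte genes, DMP1 and MEPE were at least 2-fold lower in r/r, and PHEX and SOST were lower by less than 2-fold. None of the 6 osteoblast genes differed by 2-fold in either direction. Over the 10 genes the median log2 ratio was -0.70. In bulk tissue, fewer cells of a type and less RNA per cell cannot be told apart.

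The levels spanned a wide range in both libraries, as the plot of RPKM by gene and library shows. The lengths found for the features ran from 239 bases for BGLAP to 5006 for the main RUNX2 feature. A short feature may hold only part of a transcript, so the order compares features and not whole transcripts. In the R/r library the order from the highest RPKM was IBSP, SPP1, DMP1, BGLAP, ALPL, PHEX, SOST, SP7, RUNX2 and MEPE. Neighbours whose counting intervals overlapped in that order were BGLAP and ALPL, SOST and SP7, and RUNX2 and MEPE. In the r/r library the order was IBSP, SPP1, BGLAP, ALPL, DMP1, PHEX, SP7, SOST, RUNX2 and MEPE. There the overlapping neighbours were BGLAP and ALPL, ALPL and DMP1, SP7 and SOST, and SOST and RUNX2. DMP1 thus moved from rank 3 to rank 5, past BGLAP and ALPL, though its level in r/r could not be separated from that of either gene by the counting intervals.

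**Figure D1:**
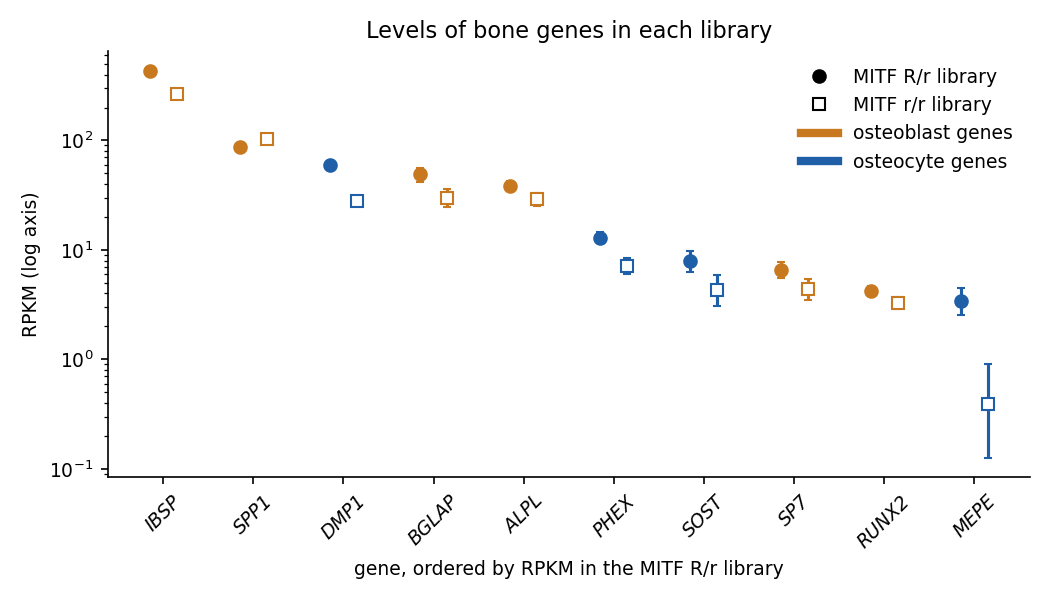
RPKM of each of the 10 bone genes (vertical axis, log scale) in the R/r library and the r/r library, with genes along the horizontal axis and bars for the 95% counting interval of each level. IBSP is the highest gene in both libraries (431 and 268 RPKM), SPP1 alone is higher in r/r, and MEPE shows the widest gap, 3.43 against 0.388 RPKM.

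Among the matrix proteins, IBSP had by far the highest level. IBSP encodes bone sialoprotein, which binds hydroxyapatite and is made where mineral first forms. Its level was 431 RPKM in R/r and 268 in r/r, from 10119 and 5673 reads, and the log2 ratio was -0.68 (95% counting interval -0.73 to -0.64). The r/r level was 62.2% of the R/r level, and 4.84% of all features compared had a lower ratio. Of the 170 features with at least as many reads, 1.18% had a lower ratio.

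SPP1 encodes osteopontin, an acidic glycoprotein of bone that many other cells, among them macrophages and epithelia, also secrete. Its level was 86.4 RPKM in R/r and 103.8 in r/r, from 1955 and 2117 reads. The r/r library was the higher one, with a log2 ratio of 0.27 (95% counting interval 0.18 to 0.36). SPP1 stood at 20.0% of the IBSP level in R/r and at 38.7% in r/r. The log2 ratio of IBSP was below that of SPP1 by 0.95, with a counting interval of the difference, IBSP minus SPP1, from -1.05 to -0.85. SPP1 was the only one of the 10 genes with an interval wholly above 0, against 11.2% of all features compared.

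BGLAP encodes osteocalcin, a small calcium-binding protein made by mature osteoblasts. Its level was 48.9 RPKM in R/r and 29.9 in r/r, from 185 and 102 reads, so the R/r library was the higher one. The log2 ratio was -0.71 (95% counting interval -1.07 to -0.35), and it differed from that of IBSP by 0.02, with an interval of the difference, IBSP minus BGLAP, from -0.34 to 0.39. Relative to IBSP, the BGLAP level was 11.4% in R/r and 11.2% in r/r.

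ALPL, the tissue-nonspecific alkaline phosphatase that splits pyrophosphate, was measured at 38.5 RPKM in R/r and 28.9 in r/r. The R/r library was higher, with 307 against 208 reads and a log2 ratio of -0.41 (95% counting interval -0.67 to -0.15). ALPL is also transcribed outside bone. Its level was 8.93% of that of IBSP in R/r and 10.8% in r/r. The length found for the ALPL feature was 504 bases, against 1484 for that of IBSP.

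The transcription factors of the osteoblast lineage had the lowest levels among the osteoblast genes. SP7, also called osterix, acts downstream of RUNX2. SP7 had 6.61 RPKM in R/r and 4.37 in r/r, from 136 and 81 reads, with a log2 ratio of -0.60 (95% counting interval -1.01 to -0.19). The main RUNX2 feature had 4.21 RPKM in R/r and 3.26 in r/r, from 334 and 233 reads, with a log2 ratio of -0.37 (-0.62 to -0.12). Both factors were lower in r/r, and their ratios could not be separated from each other (difference RUNX2 minus SP7 of 0.23, interval -0.25 to 0.71). The other feature named RUNX2 had 1.88 RPKM in R/r and 1.28 in r/r from 13 and 8 reads, and its interval of -2.03 to 0.83 covered 0. In the RefSeq annotation of a later pig assembly, Sscrofa11.1, RUNX2 overlaps SUPT3H, and whether reads were counted by strand is not given in the sources used here.

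The osteocyte genes had the lowest ratios of the 10. DMP1, dentin matrix protein, binds calcium and nucleates mineral, and it is made by young osteocytes. Its level was 60.0 RPKM in R/r and 27.9 in r/r, from 2546 and 1065 reads. The r/r level was 46.4% of the R/r level, a 2.15-fold difference with a log2 ratio of -1.11 (95% counting interval -1.21 to -1.003). Of all features compared, 1.79% had a lower ratio, and of the 1493 features with at least as many reads, 0.201%. In the later assembly DMP1 overlaps DSPP, which had only 11 reads in R/r and 10 in r/r.

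MEPE encodes matrix extracellular phosphoglycoprotein, whose acidic fragment holds back mineralisation and which PHEX protects from cleavage. MEPE was measured at 3.43 RPKM in R/r and 0.388 in r/r, from 49 and 5 reads. It was 8.83-fold lower in r/r, with a log2 ratio of -3.14, but so few reads left a wide counting interval of -4.83 to -1.82. Only 0.135% of all features compared had a lower ratio. MEPE was also the shallowest of the 10 genes, with 54 reads in both libraries together, against a median of 449 over all features compared.

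PHEX is a membrane endopeptidase of osteoblasts and osteocytes whose loss causes phosphate wasting. Its level was 12.9 RPKM in R/r and 7.16 in r/r, from 289 and 144 reads. The r/r library was lower by 1.81-fold, with a log2 ratio of -0.85 (95% counting interval -1.15 to -0.56).

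SOST, which encodes sclerostin and is a marker of mature osteocytes, had 7.91 RPKM in R/r and 4.28 in r/r, from 80 and 39 reads. It was lower in r/r by 1.85-fold, with a log2 ratio of -0.89 (95% counting interval -1.48 to -0.32). The ratios of PHEX and SOST lay close together (difference PHEX minus SOST of 0.03), though the interval of that difference ran from -0.62 to 0.70. MEPE lay below each of the other osteocyte genes, and DMP1, the nearest, was above it by 2.04 (interval of DMP1 minus MEPE 0.71 to 3.72).

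**Figure D2:**
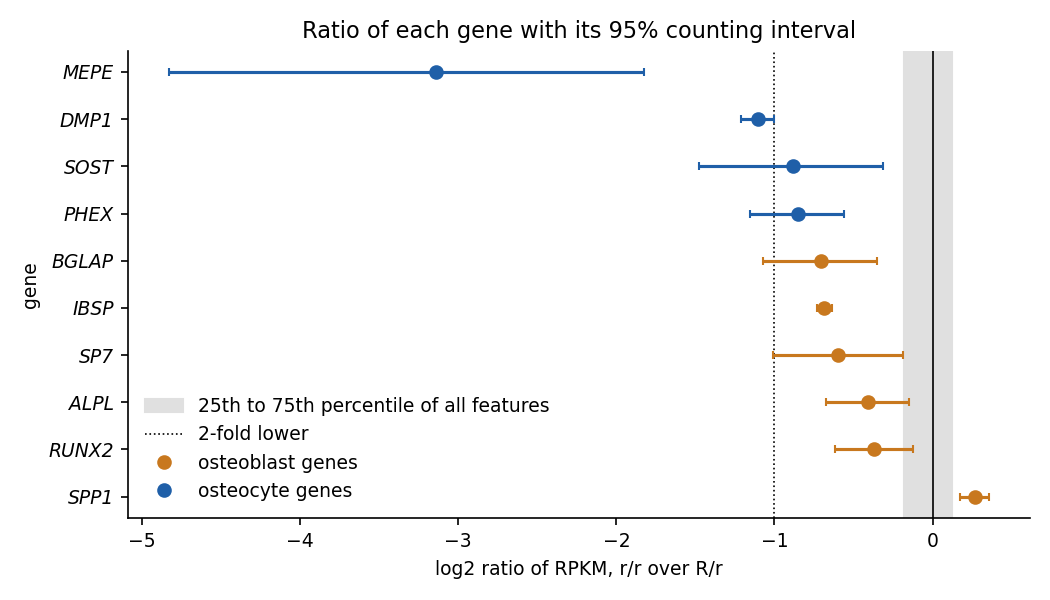
Log2 ratio of RPKM, r/r over R/r (horizontal axis), of the 10 genes in order of their ratio, with 95% counting intervals, osteoblast and osteocyte genes in separate colours, the 25th to 75th percentile of all features shaded and the 2-fold line dotted. The 4 osteocyte genes take the 4 lowest places, from -3.14 to -0.85, and SPP1 is alone above 0 at 0.27.

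The intervals of 9 genes lay wholly below 0, against 14.5% of all features compared and 16.0% of the 14188 features with at least the 54 reads of MEPE. At least 2-fold lower were 2 of the 10 genes, DMP1 and MEPE, against 2.20% of all features compared. DMP1 was already among the genes that the study reported as changed between these libraries. MEPE met the minimum RPKM through the R/r library alone. With a minimum of 5 RPKM, which MEPE did not reach, DMP1 was the 1 gene left. Of the 14188 features with at least 54 reads, 142 were at least 2-fold lower. At least 2-fold higher were 0 of the 10, against 1.78%. Of all features compared, 87.2% had a lower ratio than SPP1, 11.7% than RUNX2, 10.3% than ALPL, 5.94% than SP7 and 4.53% than BGLAP. For PHEX and SOST the share was 2.96% and 2.85%. The plot of ratio against reads sets each gene among features of like depth. The 10 genes were read from the same pair of libraries and can be transcribed by the same cells, so they are not replicates of each other.

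**Figure D3:**
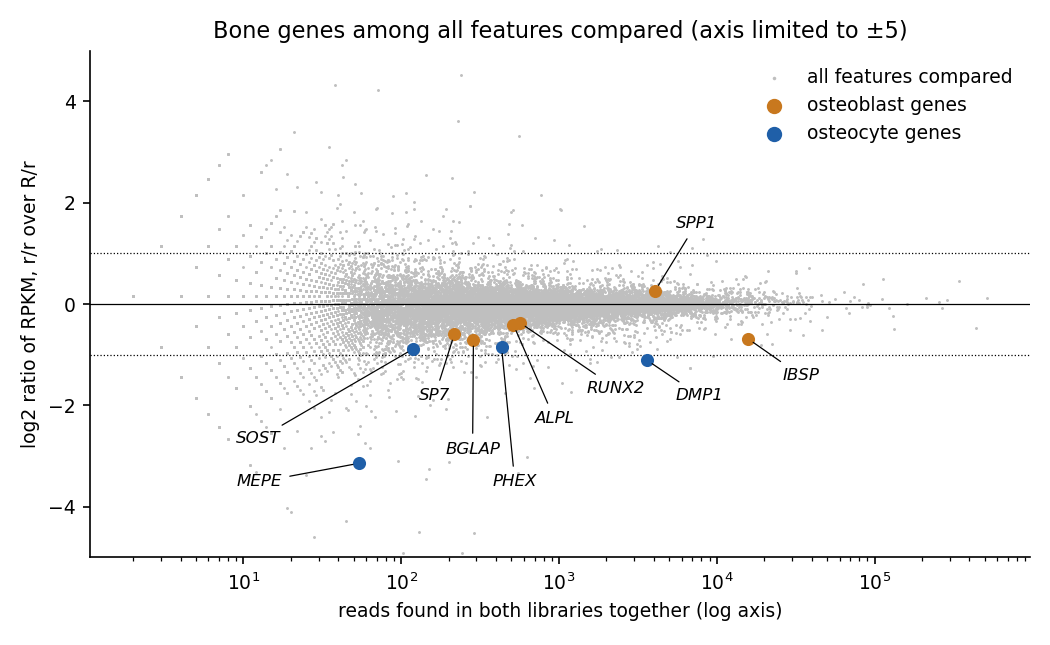
Log2 ratio of RPKM, r/r over R/r (vertical axis), against the reads found in both libraries together (horizontal axis, log scale), with all features compared as grey points, the 10 bone genes coloured and labelled, and dotted lines at 2-fold in each direction; the vertical axis stops at 5 on either side of 0, so more extreme features are not drawn. DMP1 and IBSP lie at the lower edge of the features of like depth, and MEPE lies at -3.14 with 54 reads.

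The osteocyte genes were then set against the osteoblast genes. The median log2 ratio was -0.996 for the 4 osteocyte genes and -0.50 for the 6 osteoblast genes, a difference of -0.49. The difference was -0.38 without MEPE and -0.29 with a minimum of 5 RPKM, which removed MEPE and RUNX2. Summed RPKM went from 84.3 in R/r to 39.7 in r/r for the osteocyte genes and from 615 to 438 for the osteoblast genes. Every osteocyte gene had a lower ratio than every osteoblast gene, in all 24 pairs. The interval of the difference lay wholly below 0 in 16 of the 24 pairs, and in 12 of them when the intervals were widened for 24 comparisons. The pairs reuse the same 10 genes, so they are not independent of each other. The share for pairs of other features was not computed. Intervals also left out 0 for pairs within a group, such as SPP1 against each other osteoblast gene and MEPE against each other osteocyte gene. The count of pairs alone therefore does not set the osteocyte genes apart from the osteoblast genes.

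The pairs were not spread evenly over the osteocyte genes. DMP1 was below all 6 osteoblast genes by more than counting error, and so was MEPE. PHEX was so for 3 of 6 osteoblast genes, namely SPP1, ALPL and RUNX2, and SOST for 1 of 6, SPP1. With the widened intervals DMP1 was below 4 of 6, no longer BGLAP and SP7, MEPE below 6, and PHEX and SOST below SPP1 alone. Without MEPE, which met the minimum only in the library where it was high, 10 of 18 pairs had an interval wholly below 0, and 6 of 18 a widened one. Without SPP1 as well, the gene that was higher in r/r, 7 of 15 pairs had an interval wholly below 0.

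IBSP, with the most reads, gave the narrowest comparison. DMP1 minus IBSP was -0.42 on the log2 scale, with an interval of -0.54 to -0.31. PHEX minus IBSP was -0.17 with an interval of -0.47 to 0.13, and SOST minus IBSP was -0.20 with an interval of -0.79 to 0.37. PHEX and SOST were therefore not separable from IBSP at this depth, and both intervals allowed a difference as large as that of DMP1. In levels, DMP1 went from 13.9% of IBSP in R/r to 10.4% in r/r and MEPE from 0.796% to 0.145%. PHEX stood at 3.01% and 2.67%, and SOST at 1.84% and 1.60%.

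The gene cluster that holds SPP1, MEPE, IBSP and DMP1 was followed along the chromosome, with the gene order taken from RefSeq for Sscrofa11.1. No coordinates are printed, since the expression table rests on Sscrofa10.2. In that order the log2 ratios were -0.17 for ABCG2, 0.01 for PKD2, 0.27 for SPP1, -3.14 for MEPE, -0.68 for IBSP, -1.11 for DMP1, 0.01 for DSPP, 0.05 for SPARCL1 and -0.35 for NUDT9. The lowest ratios were thus those of MEPE, IBSP and DMP1, and SPP1, next to MEPE, was higher in r/r. DSPP, the precursor of dentin proteins, was under 1 RPKM in both libraries and its interval ran from -1.38 to 1.39. SPARCL1, a secreted matrix glycoprotein related to SPARC, had 382 RPKM in R/r and 394 in r/r. Levels of NUDT9, an ADP-ribose pyrophosphatase, were 67.7 RPKM in R/r and 53.0 in r/r, with an interval of -0.46 to -0.24.

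**Figure D4:**
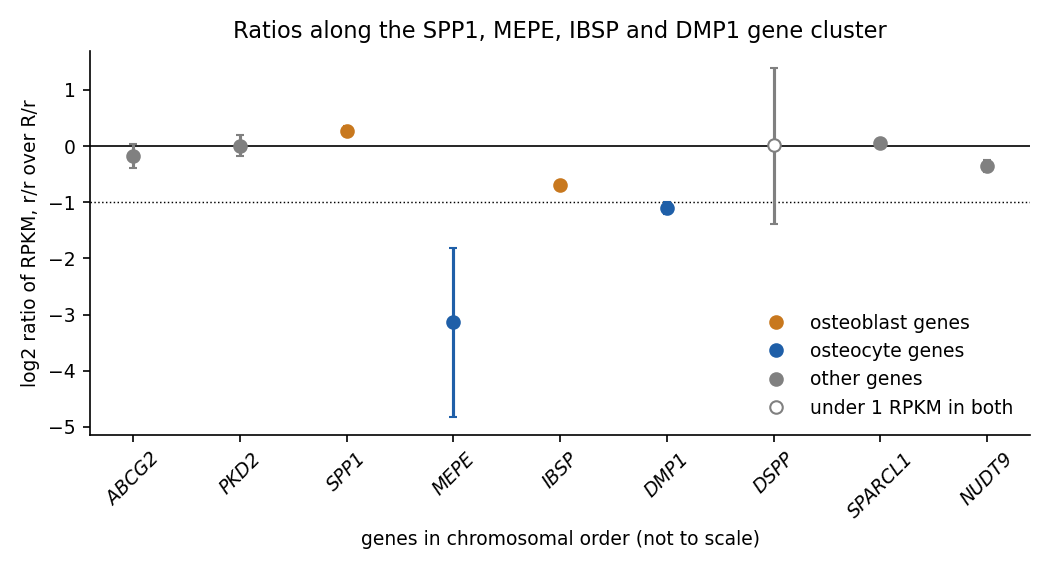
Log2 ratio of RPKM, r/r over R/r (vertical axis), with 95% counting intervals, for 9 neighbouring genes in chromosomal order (horizontal axis, not to scale), with osteoblast genes, osteocyte genes and other genes in separate colours and an open point for DSPP, which is under 1 RPKM in both libraries. MEPE, IBSP and DMP1 lie between -3.14 and -0.68, and SPP1 at 0.27 and DSPP at 0.01 flank them.

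Other genes of osteoblasts and bone matrix, from a list of 32, were found for 26 names, and 25 were compared. Of these 25, 15 had an interval wholly below 0 and 4 wholly above, against 14.5% and 11.2% of all features compared. The median log2 ratio was -0.21. COL1A1, which encodes the alpha-1 chain of type I collagen, was the 1 gene at least 2-fold lower. It went from 89.1 RPKM in R/r to 38.5 in r/r, from 347 and 135 reads, with a log2 ratio of -1.21 (95% counting interval -1.51 to -0.92). COL1A2, the partner chain, was also lower in r/r, at 277 RPKM in R/r and 180 in r/r (log2 ratio -0.62). COL1A2 had 22307 and 13098 reads. The reads found for COL1A1 were few for its RPKM, so its feature may be a short part of the gene. SPARC, or osteonectin, the highest gene of the list, had 1759 RPKM in R/r and 1170 in r/r (log2 ratio -0.59).

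Not all of that list was lower in r/r. SERPINH1, the collagen chaperone, had nearly equal levels of 667 and 662 RPKM (log2 ratio -0.01, interval -0.06 to 0.04). TNFRSF11B, osteoprotegerin, the decoy receptor that restrains osteoclasts, was lower in r/r, with 287 RPKM in R/r and 210 in r/r. Its log2 ratio was -0.45 (interval -0.50 to -0.39). SERPINF1, pigment epithelium-derived factor, had the highest ratio, with 283 RPKM in R/r and 401 in r/r (log2 ratio 0.50). Most of these genes are also transcribed by fibroblasts and fibrocytes.

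Other genes linked to osteocytes lay on both sides of 0. Of 12 listed, 9 were compared, 4 with a ratio below 0 and 5 above, and the median log2 ratio was 0.08. Their intervals lay wholly below 0 for 3 of 9 and wholly above for 1 of 9, against 14.5% and 11.2% of all features compared. The highest mean level over both libraries belonged to PDPN, podoplanin, a membrane protein of young osteocytes and of other cell types, with 73.9 RPKM in R/r and 70.9 in r/r (log2 ratio -0.06). MMP14, a membrane metalloprotease, had a log2 ratio of -0.26, CD44, the hyaluronan receptor, -0.35, and FAM20C, the kinase of secreted phosphoproteins, 0.10. DKK1, a Wnt inhibitor like sclerostin, had the highest ratio, 0.60, with 2.96 RPKM in R/r and 4.47 in r/r. FGF23, the phosphate hormone of osteocytes, had 1 read in R/r and 2 in r/r, too few for a ratio. These genes were listed as linked to osteocytes, and several of them are not restricted to bone.

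Genes of mineral, phosphate and pyrophosphate handling were found for 12 of 15 names and compared for 9. Their median log2 ratio was -0.23. Of the 9 intervals, 4 lay wholly below 0 and 0 above, against 14.5% and 11.2% of all features compared. MGP, matrix Gla protein, an inhibitor of calcification in cartilage and vessels, had the highest level, 1078 RPKM in R/r and 1014 in r/r (log2 ratio -0.09). ENPP1, which makes pyrophosphate, had a log2 ratio of -0.27. ANKH, which moves pyrophosphate precursors out of cells, had -0.02, with an interval of -0.16 to 0.13. The phosphate transporter SLC20A2 had -0.34. GALNT3, which glycosylates FGF23, was the lowest at -0.46, and VDR, the vitamin D receptor, the highest at 0.19 with an interval of -0.20 to 0.58.

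Markers of the tissues beside the SV were measured in the same libraries, and the plot of ratios by gene list shows them with the bone genes. Osteoclast genes, 13 of 14 found and 8 compared, had a median log2 ratio of 0.03 and summed to 246 RPKM in R/r and 223 in r/r. Among them CTSK, the collagen protease of osteoclasts, had 141 RPKM in R/r and 138 in r/r (log2 ratio -0.04). MMP9 had -0.52, CALCR 0.54 and ATP6V0D2 0.65, while OCSTAMP and SIGLEC15 had no reads in either library. The osteoclast genes thus lay on both sides of 0.

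Cartilage genes, 14 of 15 found and 11 compared, summed to 11554 RPKM in R/r and 11280 in r/r, with a median log2 ratio of -0.16. COL11A2 had a log2 ratio of -0.08, COL2A1 -0.27, ACAN, the lowest, -0.61 and LECT1, the highest, 0.43. Genes of spiral ligament fibrocytes and otic mesenchyme, 8 of 9 found and 7 compared, summed to 8900 RPKM in R/r and 7560 in r/r and had a median of 0.25. COCH, the most abundant of them, had a log2 ratio of -0.47, and SLC4A10 had 0.49. These lists held ratios on both sides of 0, as the osteoclast list did.

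Marginal cell genes of the SV, 4 of 6 found, summed to 1575 RPKM in R/r and 1160 in r/r, with ATP1B2 lowest at a log2 ratio of -0.81 and a median of -0.24. Blood genes, 7 of 8 found and 5 compared, summed to 3052 RPKM in R/r and 2464 in r/r, with a median of -0.28. Muscle genes, 9 of 11 found and 4 compared, summed to 43.2 RPKM in R/r and 45.8 in r/r, with a median of -0.25, and ACTA1 and MYL1 had 1 read and no reads in both libraries together. TNNT1, a troponin of slow muscle, was 2.11-fold lower in r/r, and MYH7 had a log2 ratio of 0.52. The blood, marginal cell, muscle, cartilage and mineral lists thus also had medians below 0, as did the other bone matrix genes, and how much bone was taken with each dissected wall is not given. The part of dissection and of other cell types in the bone gene values was not tested.

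**Figure D5:**
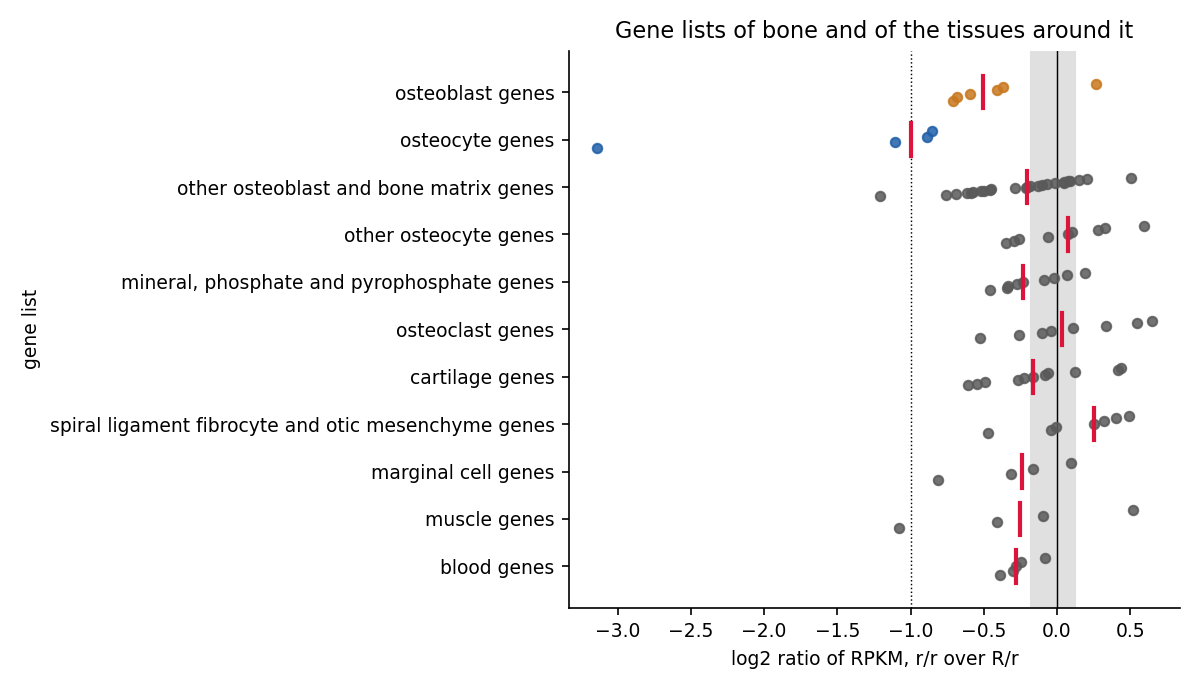
Log2 ratio of RPKM, r/r over R/r (horizontal axis), of every compared gene (points) in each gene list (vertical axis), with the median of a list as a red bar, the 25th to 75th percentile of all features shaded and the 2-fold line dotted; the melanocyte genes, with a median of -6.23, are not drawn. The 4 chosen osteocyte genes have the lowest median of the lists drawn, -0.996, and the 6 chosen osteoblast genes follow at -0.50. The other osteocyte genes have a median of 0.08.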

How the data were processed

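SV RNA was sequenced as 1 library per genotype. The authors aligned the reads to Sscrofa10.2 with TopHat2 (2.0.7) and deposited RPKM values per feature. The counting program and annotation are not given in the sources used here. The table also holds 2 columns without headings, which were not used. Log2 ratios of RPKM were taken without a pseudocount. Of features sharing a symbol, that of highest mean RPKM was taken. The genes and lists were chosen with earlier results of these data known. Those named from the lists are the 4 of highest mean RPKM, the lowest and highest ratios, genes 2-fold apart with an interval that leaves out 0, and neighbours in the cluster. COL1A2, FGF23, OCSTAMP, SIGLEC15, ACTA1 and MYL1 were named after their values were seen. List genes not found by name were not analysed here.

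Whole reads were recovered for 100% of 20862 features above 0, as the smallest whole numbers that gave both RPKM values with a whole length. True reads may be a multiple of these. Of 10 mitochondrial genes, 8 had RefSeq lengths that were whole multiples of the length found, and 6 were equal. The procedure was tested on simulated data of 2963 features. It returned the exact reads for 80.9% of them, and the exact reads or a whole fraction of them for 100%. The true ratio lay within 96.8% of the intervals of features with reads in both simulated libraries. Python 3.11.15, pandas 2.3.3 and scipy 1.17.1 were used. Alternatives covered the pseudocount, the minimum RPKM, the scaling, shared names and the fold threshold. Leaving out genes, widening the intervals and halving the reads were added after seeing the data.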

Additional observations from a re-analysis of the deposited data

How the results depend on the processing

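No paired analysis was possible because each genotype had 1 library. The count of genes at least 2-fold lower went from 2 to 1 with a minimum RPKM of 5, which removed MEPE and RUNX2, and to 7 with a 1.5-fold threshold. The shares of all features at 1.5-fold and with the reads halved were not computed, so these counts have no background beside them. MEPE had a log2 ratio of -1.67 with a pseudocount of 1 RPKM. No value reversed. Over the alternatives for pseudocount, minimum RPKM, scaling, shared names and threshold, the difference between the medians of osteocyte and osteoblast genes ran from -0.49 to -0.29, the last with a minimum RPKM of 5. Leaving out each gene in turn gave -0.60 to -0.38, and another scaling moved all features by at most 0.04. With the reads halved, as if both mates of a pair had been counted, 8 genes had an interval below 0, since that of SP7 then reached 0.00. In that setting 12 of 24 pairs had an interval below 0, against 16 with all reads. Without MEPE 10 of 18 pairs did, and without MEPE and SPP1 7 of 15. Depth limits MEPE, with 5 reads in r/r, and SOST, with 39.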
